A study of Homo sapiens and Mus musculus with 69 samples.

Results

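H82 is a human small cell lung cancer (SCLC) cell line of the *NEUROD1*-expressing neuroendocrine (NE) type, and the comparison described here is its response to activated NOTCH1 when the repressor gene *REST* is disrupted. It sets 3 libraries of *REST* KO cells grown with doxycycline (libraries 31 to 33 of the labels) against 3 libraries of the same cells grown without it (libraries 28 to 30). These 6 libraries were taken by their labels from 69 in the series, 60 of them human and 21 of H82. All 6 carry both the *REST* KO and a lentiviral vector in which doxycycline (1 μg/mL) switches on the NOTCH1 intracellular domain (N1ICD), so that by label the groups differ in doxycycline alone. The other H82 groups, also of 3 libraries each, are parental cells, N1ICD cells without a KO (REST-intact cells, libraries 4 to 6 without and 7 to 9 with doxycycline) and N1ICD cells with *STING1* KO without and with doxycycline. Bulk RNA-Seq of polyA RNA was done to learn whether gene changes that follow NOTCH1 need REST.

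Some features limit the comparison. According to the study's methods, N1ICD-expressing cells were harvested as the adherent fraction after long-term culture, whereas SCLC cells such as H82 grow in suspension, so a change within cells and a change in which cells were collected cannot be told apart. For the same reason, fewer cells of a type and less RNA per cell cannot be told apart in bulk RNA. No library of cells without the vector was grown with doxycycline, and the KO was made with 1 guide RNA, without a statement of which clone or pool was sequenced. The study's immunoblot of H82 cells with *REST* KO shows 3 single-cell KO clones, but the libraries are not linked to any of them. The labels do not say that the 3 libraries of a group came from separate cultures, so the spread between them may be technical. *P* values and SEs rest on the spread within groups pooled over all 21 H82 libraries, not on that of the 6 compared libraries alone.

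Notch receptors are activated by ligands on neighbouring cells, cut within the membrane by γ-secretase, and release an intracellular domain that joins RBPJ and a Mastermind coactivator on DNA to switch on repressors of the HES and HEY families. REST silences neuronal genes outside neurons by binding RE1 elements and recruiting the RCOR and SIN3 corepressors with histone deacetylases and demethylases. In SCLC, Notch activity is known for turning neuroendocrine cells into non-neuroendocrine cells and for raising *REST*.

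The DNA elements that RBPJ and REST recognise can be searched in promoters of RefSeq on GRCh38.p14, a build other than the hg19 of the expression table. The core of the RBPJ site, GTGGGAA, was searched on both strands in windows of 300 bases, from 250 before to 50 after each start, and was present in 2194 of 35116 windows (6.25%). Of 9 classical Notch target genes, 8 had a window, and 5 of these (62.5%) held the core. The 250 bases before the start of each of the 5 are shown, 5′ to 3′ on the strand of the gene, because these genes are the classical direct targets of Notch, with every whole match to GTGGGAA or its reverse complement TTCCCAC in capitals.
*HES1* (chr3:194135898-194136147, plus strand): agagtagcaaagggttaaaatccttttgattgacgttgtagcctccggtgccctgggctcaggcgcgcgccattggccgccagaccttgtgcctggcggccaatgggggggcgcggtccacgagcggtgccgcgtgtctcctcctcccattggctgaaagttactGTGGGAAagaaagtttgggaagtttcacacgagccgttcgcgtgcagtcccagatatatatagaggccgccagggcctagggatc
*HES4* (chr1:1000098-1000347, minus strand): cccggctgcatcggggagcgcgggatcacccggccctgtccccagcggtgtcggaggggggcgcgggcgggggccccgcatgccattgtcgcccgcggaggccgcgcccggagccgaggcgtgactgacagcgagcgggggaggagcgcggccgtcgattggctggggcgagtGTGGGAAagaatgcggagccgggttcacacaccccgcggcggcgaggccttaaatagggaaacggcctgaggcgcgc
*HES5* (chr1:2530264-2530513, minus strand): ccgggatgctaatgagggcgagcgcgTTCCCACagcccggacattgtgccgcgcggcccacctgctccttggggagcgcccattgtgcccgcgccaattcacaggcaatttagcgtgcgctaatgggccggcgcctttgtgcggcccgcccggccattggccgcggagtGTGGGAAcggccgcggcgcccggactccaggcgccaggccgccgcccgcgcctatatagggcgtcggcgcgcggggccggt
*HEY2* (chr6:125749382-125749631, plus strand): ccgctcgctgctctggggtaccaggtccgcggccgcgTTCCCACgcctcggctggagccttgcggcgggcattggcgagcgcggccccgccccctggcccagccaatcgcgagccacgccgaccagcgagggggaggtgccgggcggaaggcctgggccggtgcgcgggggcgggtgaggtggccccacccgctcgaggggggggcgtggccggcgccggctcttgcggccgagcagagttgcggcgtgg
*HEYL* (chr1:39639644-39639893, minus strand): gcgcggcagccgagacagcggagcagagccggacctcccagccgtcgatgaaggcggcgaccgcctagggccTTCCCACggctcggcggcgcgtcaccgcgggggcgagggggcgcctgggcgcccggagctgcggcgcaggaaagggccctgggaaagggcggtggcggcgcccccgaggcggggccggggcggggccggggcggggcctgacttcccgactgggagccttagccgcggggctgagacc

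The left part of the RE1 element, TTCAGCACC, was far rarer, with 132 of 35116 windows (0.376%) holding it on either strand, and CAGCACC followed after 2 bases by GGACAG was present in 18 (0.0513%). Of 58 neuronal genes with a known or proposed RE1 element, 38 had a window and 3 held the left part, namely *SYN1*, *GRIA2* and *UNC13A*, and among 19 matched genes of neuroendocrine granules *SCG3* did. *SYN1* and *GRIA2* also held the second pattern. RE1 elements often lie outside such windows, so that a window without these letters says nothing about REST binding at a gene. The 30 bases around the match (capitals) are shown for the 3 of these genes whose expression was tested, since their responses with and without *REST* KO are compared in what follows.
*SYN1* (chrX:47620071-47620100, minus strand): cactgccagcTTCAGCACCgcggacagtgc
*UNC13A* (chr19:17688329-17688358, minus strand, match on the other strand): ccgcgcccccGGTGCTGAAccaagatggcc
*SCG3* (chr15:51681501-51681530, plus strand): tcacaggaacTTCAGCACCcacagggcgga

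All expression values given here are the deposited log2(RPKM + 1) values, on which a gene without reads is at 0 and changes of genes near 0 are understated. The libraries were of like depth, between 0.893 and 1.11 times library 28 in the 6 compared and between 0.643 and 1.27 times over all H82 libraries, and 15048 to 15167 genes were above 0 without doxycycline against 16915 to 17091 with it. Within groups, libraries 28 and 29 (r = 0.9957) and 31 and 32 (r = 0.9918) were closest across genes, whereas library 30 (r = 0.9875 and 0.9879) and library 33 (r = 0.9684 and 0.9707) stood apart. Library 30 had the highest values of the immediate-early genes *FOS* (1.64, 1.35 and 7.66) and *EGR1* (0.091, 0.082 and 5.51), and library 33 had higher values of proliferation genes than libraries 31 and 32. Library 4 stood apart among the REST-intact libraries without doxycycline (r = 0.958 and 0.9639). The defining SCLC markers of the NEUROD1 type were as labelled without doxycycline, with *NEUROD1* at 14.19, 14.22 and 13.62 and *POU2F3*, a marker of another SCLC type, at 0.18, 0 and 0.

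*NOTCH1* (chr9:139388885-139440500 of GRCh37, minus strand), whose reads come from the vector as well as from the endogenous gene, was at 1.28, 1.21 and 1.47 in libraries 28 to 30 and at 8.75, 9.15 and 10.74 in libraries 31 to 33. Every induced library was thus far above every uninduced one (log2 fold change 8.23, SE 0.44, limma adjusted *P* = 3.41e-11). Induction was weaker in REST-intact cells, where *NOTCH1* reached 4.75, 4.26 and 5.56 (log2 fold change 3.70), and the responses differed by 4.53 (SE 0.62, limma adjusted *P* = 4.62e-05). The *STING1* KO cells lay between (log2 fold change 5.02). A difference in response between *REST* KO and REST-intact cells therefore cannot be told apart from a difference in the amount of *NOTCH1* RNA induced.

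*REST* itself (chr4:57774042-57832974 of GRCh37, plus strand) was transcribed in all 6 libraries, at 3.99, 4.15 and 4.20 in those without doxycycline. With doxycycline it stood at 4.95 in libraries 31 and 32 alike and at 5.89 in library 33. The increase passed the threshold (log2 fold change 1.15, SE 0.22, limma adjusted *P* = 0.00026), but was 0.84 and below the fold threshold without library 33. REST-intact cells showed a log2 fold change of 1.67, and the difference between the responses did not pass the test (-0.52, limma adjusted *P* = 0.28). RNA levels do not show whether REST protein was lost. Of 14 genes of REST and its cofactors, 2 rose, *REST* and the phosphatase gene *CTDSP1* (log2 fold change 1.17, and 0.99 without library 32, under the fold threshold), and 3 fell, beside 16.2% and 13.7% of all genes. These included the corepressor gene *RCOR2* (-2.35, and -2.60 in REST-intact cells) and the demethylase gene *KDM1A* (-1.34, and -1.51). *SRRM4*, whose product splices *REST* into a truncated form in neurons, was the third, from 2.30, 2.33 and 2.19 to 0.91, 1.03 and 1.23. Its relative *SRRM3* differed between the responses, with log2 fold changes of 0.73 in *REST* KO and -1.65 in REST-intact cells (difference 2.38, limma adjusted *P* = 3.87e-05).

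Doxycycline changed 4157 of 13903 genes tested in *REST* KO cells (29.9%), of which 2259 rose (16.2%) and 1898 fell (13.7%). A gene was called when limma gave an adjusted *P* under 0.05 and its log2 fold change was 1 or more in either direction. The 3 induced and 3 uninduced libraries did not overlap, with the induced ones higher for 33.5% of all genes and lower for 34.7%. In REST-intact cells 2044 rose (14.7%) and 1726 fell (12.4%). The same 1326 genes rose in both, which is 58.7% of the genes that rose in *REST* KO and 64.9% of those that rose in REST-intact cells, and 1064 fell in both (56.1% and 61.6%). A set of 53 genes (0.381%) was called in opposite directions. The response itself differed for 1796 genes (12.9%), being higher with *REST* KO for 1037 (7.46%) and lower for 759 (5.46%). The median response over all tested genes was -0.0091 in *REST* KO and -0.0026 in REST-intact cells, so the lists that follow are read against medians near 0 and against 16.2% higher and 13.7% lower, and counts of differences between the responses against 7.46% higher and 5.46% lower. The *STING1* KO cells, given beside these for reference, had 1693 genes higher (12.2%) and 1122 lower (8.07%), together 20.2%, and as they are set against the same REST-intact libraries, no overlap is drawn from the pair.

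**Figure D1:**
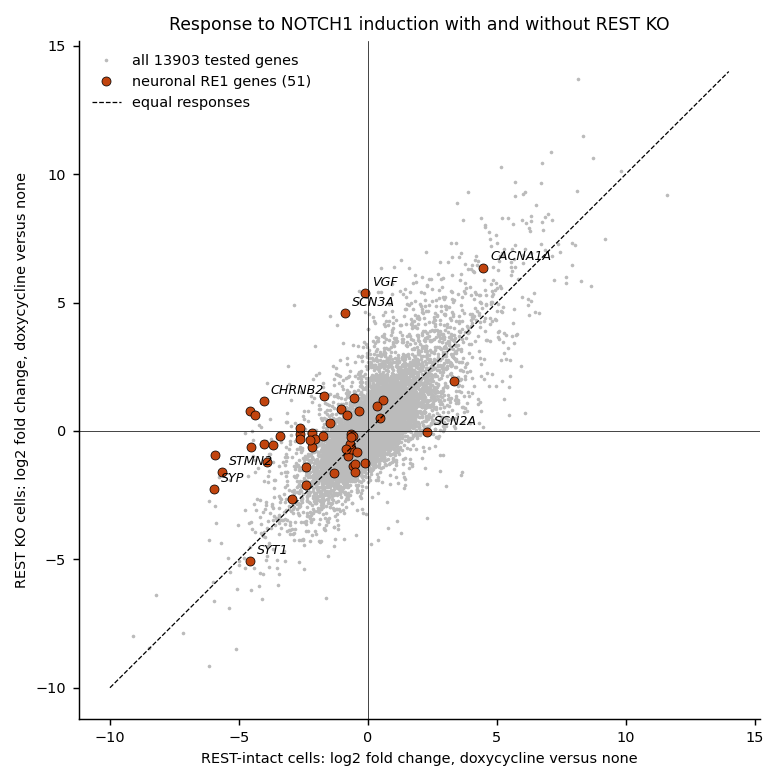
Each point is 1 of 13903 tested genes, with its log2 fold change with doxycycline in REST-intact cells on the x axis and in *REST* KO cells on the y axis; larger orange points are 51 neuronal RE1 genes and the dashed line marks equal responses. Many of the neuronal RE1 genes lie above the line, with *CHRNB2* at -4.04 on the x axis and 1.16 on the y axis, while *SYT1* lies near the line at -4.56 and -5.07.

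Notch target genes rose in *REST* KO cells, 7 of 8 tested, with a median log2 fold change of 4.05 against 2.11 in REST-intact cells, where 6 of 8 rose. *HES1*, the archetypal Notch-induced repressor, was at 0.14, 0.21 and 0.10 without and 4.42, 4.33 and 4.67 with doxycycline. Its groups lay far apart (log2 fold change 4.32, SE 0.34, limma adjusted *P* = 7.19e-09), and the difference from the response of REST-intact cells did not pass the test (0.14, SE 0.49, limma adjusted *P* = 0.884). *HES5*, whose promoter held 2 RBPJ cores, was listed at 0 in libraries 28 to 30 and in the REST-intact libraries without doxycycline. With doxycycline it was at 4.36, 4.59 and 4.65 in *REST* KO and at 2.82, 2.43 and 3.72 in REST-intact cells, without overlap. *HES4* was at 0.54, 0.51 and 0.39 and then at 5.52, 5.47 and 5.00 (log2 fold change 4.85, limma adjusted *P* = 1.27e-11).

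The HEY repressors rose as well. *HEY1* was at 1.37, 1.54 and 1.47 without doxycycline and at 6.28, 6.41 and 8.08 with it, highest in library 33, which also had the most *NOTCH1*. *HEY2* rose by 3.70 and *HEYL* by 3.37 on the log2 scale, and *NRARP*, a feedback inhibitor of the N1ICD complex, went from 3.29, 3.26 and 2.89 to 7.08, 7.19 and 6.50. For 6 of the 8 target genes (*HES4*, *HES5*, *HEY1*, *HEY2*, *HEYL* and *NRARP*) the response was called higher in *REST* KO than in REST-intact cells, by 2.18 to 2.39 for the 5 genes not at 0. The count of 6 was 5 without library 7, 8 or 33 or with a pseudocount of 0.1. It was 4 without libraries 4, 30 and 33 together. *HES7* was the exception among the targets, and fell from 2.85, 2.81 and 2.72 to 0.66, 0.55 and 1.41. *HES2* was too low to be tested.

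Among receptors, *NOTCH3* was close to 0 in libraries 28 to 30 (0.0089, 0.039 and 0.056) and at 6.13, 6.64 and 5.64 with doxycycline, a response 2.48 above that of REST-intact cells (SE 0.54, limma adjusted *P* = 0.00375). *NOTCH2* did not pass the test (log2 fold change 0.24, limma adjusted *P* = 0.457), with overlapping groups at 4.16, 4.40 and 3.81 without and at 4.09, 4.22 and 4.79 with doxycycline. Of 7 ligand genes tested, 2 rose and 3 fell. *JAG1* (chr20:10618332-10654647 of GRCh37, minus strand), an activating ligand, went from 0.63, 0.77 and 1.14 to 9.13, 9.31 and 10.52, one of the largest rises of all genes (log2 fold change 8.81, SE 0.37, limma adjusted *P* = 1.73e-12), against 6.51 in REST-intact cells. *DLL4* rose from 2.45, 2.47 and 2.64 to 4.89, 5.59 and 6.26. *DLL3*, the inhibitory ligand on the surface of NE SCLC cells, fell from 4.25, 4.30 and 4.36 to 1.25, 1.32 and 1.70; its fall was smaller than that in REST-intact cells (log2 fold changes -2.88 and -3.94, limma adjusted *P* of the difference = 0.00134). *JAG2* fell by 3.12 and *CNTN1* by 3.79 on the log2 scale.

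Regulators of the pathway moved in both directions, with 3 of 21 tested higher and 5 lower, beside 16.2% and 13.7% of all genes. *DTX1*, which encodes a Deltex ubiquitin ligase that binds Notch, was at 0.59, 0.49 and 0.43 without and 4.14, 4.06 and 3.59 with doxycycline in *REST* KO cells. In REST-intact cells it was at 1.71, 1.93 and 2.01 without and at 0.96, 0.46 and 1.34 with doxycycline. That fall was under the fold threshold and was not called. The responses had opposite signs and differed by 4.39 (SE 0.32, limma adjusted *P* = 4.64e-08). *DTX4* and the coactivator *MAML2* also rose (log2 fold changes 1.96 and 1.73). The DNA-binding partner *RBPJ* fell from 3.87, 3.95 and 4.19 to 2.64, 2.59 and 3.02, and *MAML3*, the glycosyltransferase *LFNG*, the γ-secretase subunit *PSENEN* and *HES6*, a HES family member that opposes HES1, fell by 1.11 to 3.40 on the log2 scale.

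**Figure D2:**
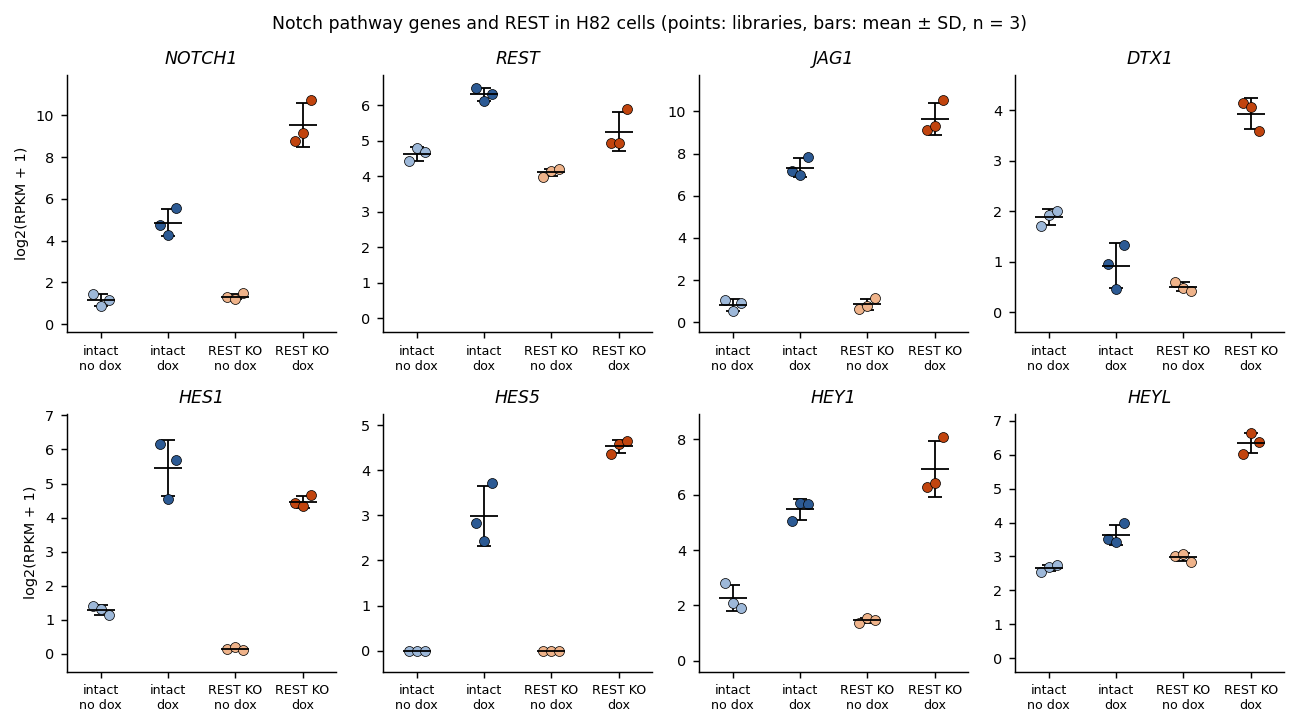
Each panel shows log2(RPKM + 1) of 1 gene by library (points, 3 a group) with the mean and SD (bars) in REST-intact and *REST* KO cells without and with doxycycline. With doxycycline, *NOTCH1*, *JAG1*, *HEY1*, *HEYL* and *HES5* were higher in the *REST* KO than in the REST-intact libraries, *HES1* overlapped and *REST* was lower. *DTX1* went up in *REST* KO cells and down in REST-intact cells, there by less than the fold threshold.

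The 58 neuronal genes with RE1 elements behaved unlike the targets. Of 51 tested in *REST* KO cells, 8 rose and 12 fell, a median of -0.30, whereas in REST-intact cells 3 rose and 27 fell, a median of -1.33. The response was called higher with *REST* KO for 27 of 51 genes, against 7.46% of all genes, and lower for 2, against 5.46%, and the median difference was 1.54. Of the 27 genes that fell in REST-intact cells, 19 did not fall in *REST* KO cells and 21 had a response that was called higher. The count of 27 was 26 to 28 of 50 to 58 genes under every alternative, including those that left out 1 library each or libraries 4, 30 and 33 together, the last chosen after the data had been seen. The count of 2 was 4 without library 8, and 3 without library 5 or 6, with quantile scaling or with a pseudocount of 0.1. It was 1 without libraries 4, 30 and 33 together.

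Genes of this list that act at synaptic vesicles are described first. *SYP* (chrX:49044268-49056677 of GRCh37, minus strand), which encodes the vesicle protein synaptophysin used to diagnose SCLC, was at 7.46, 7.40 and 7.39 without and 5.08, 5.25 and 5.17 with doxycycline. In REST-intact cells it went from 6.96, 6.90 and 7.01 to 0.78, 0.94 and 1.26. It thus fell in both, by 2.25 and 5.97 on the log2 scale, and the difference of 3.72 was many times its SE (0.32, limma adjusted *P* = 2.94e-07). *CPLX1* and *CPLX2*, encoding complexins that clamp vesicle fusion, were close to 0 in REST-intact cells with doxycycline (*CPLX1* 0.70, 0.49 and 0, *CPLX2* 0.46, 0.19 and 0.18). In *REST* KO cells *CPLX1* was at 9.48, 9.49 and 9.27 without and at 8.41, 8.43 and 8.53 with doxycycline, and *CPLX2* at 6.01, 5.85 and 6.21 and then at 6.69, 6.78 and 6.97. Neither was called changed there, at log2 fold changes of -0.95 (-1.03, and called, without library 30) and 0.79, while the responses differed by 4.97 and 5.34 (limma adjusted *P* = 1.78e-08 and 3.59e-08).

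*UNC13A*, a vesicle priming factor, and *SYN1*, which ties vesicles to the cytoskeleton, are the tested genes of this list with the left part of RE1 in their promoter windows. *UNC13A* went from 6.64, 6.71 and 6.70 to 6.22, 6.30 and 6.06 in *REST* KO cells and from 4.46, 5.23 and 5.24 to 1.06, 0.84 and 0.98 in REST-intact cells (difference 3.52, limma adjusted *P* = 2.3e-06). *SYN1* went from 3.86, 3.87 and 3.65 to 3.26, 3.19 and 3.04 in *REST* KO cells and from 2.17, 2.63 and 2.34 to 0.21, 0.13 and 0.28 in REST-intact cells (difference 1.54, limma adjusted *P* = 3.35e-05). With doxycycline the *REST* KO libraries of both genes lay above all REST-intact libraries. *SYT4* and *SNAP25*, of the vesicle fusion machinery, had differences of 2.71 and 1.90, and the fall of *SYT4* in *REST* KO cells (-1.21) was -0.95 without library 30, under the fold threshold. *SYT1*, the calcium sensor of vesicle release, fell from 8.78, 8.85 and 8.77 to 3.54, 4.00 and 3.66 in *REST* KO cells. It also fell in REST-intact cells (log2 fold changes -5.07 and -4.56), and the difference did not pass the test (-0.50, SE 0.59, limma adjusted *P* = 0.611).

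Channels and receptors gave examples of responses with opposite signs. *CHRNB2* (chr1:154540254-154552489 of GRCh37, plus strand), a nicotinic acetylcholine receptor subunit, rose in *REST* KO cells from 8.63, 8.72 and 8.70 to 9.78, 9.92 and 9.85 and fell in REST-intact cells from 8.32, 7.25 and 7.29 to 3.77, 3.17 and 3.78. The difference was 5.21 (SE 0.42, limma adjusted *P* = 1.37e-07). *KCNC1*, a potassium channel, was not called in *REST* KO cells (7.80, 8.03 and 7.47, then 8.14, 8.34 and 8.71) and fell by 4.39 on the log2 scale in REST-intact cells. *SCN3A*, a sodium channel, was variable without doxycycline (3.14, 2.18 and 4.91) and was at 7.56, 8.15 and 8.33 with it, without overlap. *CACNA1A*, a calcium channel, rose in both, reaching 7.03, 6.66 and 6.40 in *REST* KO and 3.94, 4.31 and 5.14 in REST-intact cells. *SCN2A* was one of 2 genes with a lower response, being at 0.74, 0.85 and 0.22 with doxycycline in *REST* KO and 2.56, 2.69 and 3.07 in REST-intact cells, and *DNM1*, a vesicle endocytosis GTPase, was the other (difference -1.13).

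Neurofilament and cytoskeletal genes also differed between the responses. *NEFL* and *NEFM*, the light and medium neurofilament chains, were not called in *REST* KO cells (log2 fold changes -0.53 and -0.61) and fell by 3.66 and 4.53 on the log2 scale in REST-intact cells. *INA*, a further neurofilament protein, rose from 4.48, 4.58 and 4.58 to 5.75, 5.74 and 6.22 in *REST* KO cells, while REST-intact libraries with doxycycline were at 2.99, 2.75 and 2.82. *STMN2*, a tubulin-binding protein of axons, fell in both, from 7.56, 7.53 and 7.12 to 5.91, 6.08 and 5.44 in *REST* KO cells and to 1.73, 2.78 and 2.59 in REST-intact cells. Its call in *REST* KO cells was at the edge (log2 fold change -1.60, limma adjusted *P* = 0.0493) and was lost when any of the 6 libraries was left out (-1.41 to -1.74). *VGF* (chr7:100805790-100808850 of GRCh37, minus strand), a secreted neuropeptide precursor, had the highest rise of this group in *REST* KO cells after *CACNA1A*, from 0.39, 0.30 and 0.23 to 6.04, 5.65 and 5.33, against 0.64, 0.71 and 0.89 and then 0.94, 0.44 and 0.56 in REST-intact cells (difference 5.47, SE 0.45, limma adjusted *P* = 1.91e-07).

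**Figure D3:**
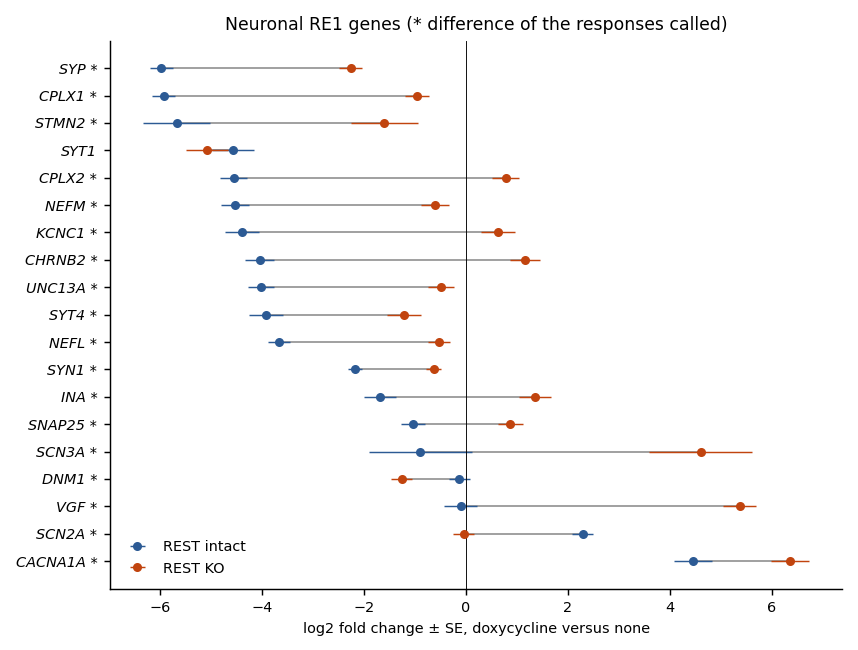
Each row is 1 of 19 neuronal RE1 genes named in the text, ordered by the response of REST-intact cells; points are log2 fold changes with doxycycline ± SE from limma on the x axis, blue for REST-intact and orange for *REST* KO cells, and * marks 18 genes whose difference was called, a higher share than the 29 of all 51 tested. *SYP* is at -5.97 and -2.25, *CPLX2* at -4.55 and 0.79 and *VGF* at -0.10 and 5.37, whereas *SYT1* has its points side by side at -4.56 and -5.07.

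These genes also differed before induction. Without doxycycline, 17 of the 51 were higher and 2 lower in *REST* KO than in REST-intact cells, against 3.39% and 2.85% of all genes (6.24% in either direction), a comparison added after the data had been seen. *CPLX1*, for example, was 3.09 higher on the log2 scale and *UNC13A* 1.71. The *STING1* KO cells were examined for the same genes, also after the data had been seen. With doxycycline 6 of the 51 rose and 8 fell in them, a median of -0.20, and against REST-intact cells 25 had a higher response and none a lower one by limma (1 at an unadjusted *P* under 0.05), beside 3.91% and 3.21% of all genes. The summed RPKM of the list was 2013 to 2822 in REST-intact and 662.7 to 776.1 in *STING1* KO libraries without doxycycline, so that the latter lay lower before induction. With doxycycline it was 316.7 to 410.6 and 394.2 to 465.1, whereas *REST* KO libraries were at 3420 to 3644 without and 3138 to 3435 with it. *SYP* had a log2 fold change of -4.43 in *STING1* KO cells, *CPLX1* -1.13, *CHRNB2* -0.029 and *STMN2* -0.66. *REST* in *STING1* KO cells was at 5.35, 5.26 and 5.17 without and 5.72, 5.75 and 5.67 with doxycycline (log2 fold change 0.46, limma adjusted *P* = 0.109). Both KO comparisons use the same REST-intact libraries. Set directly against *STING1* KO, the response of *REST* KO cells was higher for 10 and lower for 6 of the 51 (7.14% and 5.84% of all genes).

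Genes of dense-core granules and peptide hormones, the secretory hallmark of NE cells, were called in both directions. Of 25 tested, 9 rose and 8 fell in *REST* KO cells (median 0.18) against 4 and 12 in REST-intact cells (median -0.71), and the response was called higher for 12 and lower for 1 (2 without library 7 or 31). Without library 31 the median in *REST* KO cells was -0.095, with 7 of 22 tested higher and 8 lower, and without library 33 it was 0.036, with 7 higher and 5 lower. In *STING1* KO cells 10 of the 25 had a higher response than in REST-intact cells, beside 3.91% of all genes. None was lower by limma (1 at an unadjusted *P* under 0.05). The summed RPKM was 997.7 to 1406 in *STING1* KO and 3725 to 5535 in REST-intact libraries without doxycycline. With it, the sums were 516.1 to 996.9 and 784.4 to 1451. Set directly against *STING1* KO, the *REST* KO response was higher for 5 and lower for 2 (7.14% and 5.84% of all genes). *CHGA* (chr14:93389495-93401630 of GRCh37, plus strand), the granule protein chromogranin A, fell from 6.71, 6.73 and 7.40 to 5.43, 5.41 and 4.67 in *REST* KO cells, and from 6.85, 5.76 and 5.93 to 0.30, 0.34 and 0.58 in REST-intact cells. The falls of 1.78 and 5.78 on the log2 scale differed by 4.00 (SE 0.49, limma adjusted *P* = 1.51e-05). *SCG3*, which holds the left part of RE1 just after its start, was at 11.56, 11.55 and 11.56 without and 11.88, 11.88 and 11.44 with doxycycline in *REST* KO cells, with overlap, and fell to 8.43, 9.62 and 8.41 from 11.48, 12.06 and 11.82 in REST-intact cells.

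*PTPRN*, a granule membrane protein, was likewise not called (0.22) where REST-intact cells showed a fall (-4.23). The prohormone convertases *PCSK1* and *PCSK2*, which cut peptide precursors, rose in *REST* KO cells, *PCSK1* from 0.25, 0.75 and 0.68 to 8.69, 8.91 and 8.67 and *PCSK2* from 4.35, 4.53 and 4.78 to 6.57, 6.87 and 6.71. *PCSK1* also rose in REST-intact cells (log2 fold change 5.99) and *PCSK2* did not (-0.71, limma adjusted *P* = 0.233). The peptide genes *GRP* and *SST* were listed at 0 in libraries 28 to 30 and were at 1.78, 2.08 and 1.69 and at 3.20, 2.97 and 2.19 with doxycycline. *CADPS* and *RAB3A*, of granule release, fell in *REST* KO cells by 3.82 and 3.55 on the log2 scale, and *UCHL1*, *ENO2* and *NCAM1*, general NE markers, by 1.11 to 2.35. Without library 33, *UCHL1* (-0.83) and *NCAM1* (-0.80) did not pass the fold threshold.

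Of 19 NE transcription factors tested, 10 fell and 4 rose in *REST* KO cells (median -1.20), against 12 and 3 in REST-intact cells (median -2.01). *NEUROD1* (chr2:182533022-182545554 of GRCh37, minus strand), the factor that defines this SCLC type, went from 14.19, 14.22 and 13.62 to 5.12, 5.69 and 7.25. Its log2 fold change was -7.99 (SE 0.76, limma adjusted *P* = 7.56e-08), against -9.10 in REST-intact cells, and the difference did not pass the test (limma adjusted *P* = 0.53). *NEUROG1*, another proneural factor, went from 5.25, 5.24 and 4.46 to 0, 0 and 0.048, and *FOXA1* fell by 3.02, *OTX2* by 3.82 and *POU3F2* by 2.47 on the log2 scale. The response was called higher with *REST* KO for 7 of 19 and lower for none (0 also at an unadjusted *P* under 0.05). The count of 7 was 6 to 8 under the alternatives, and 1 gene was called lower without libraries 4, 30 and 33 together. In *STING1* KO cells 5 of the 19 had a higher response than in REST-intact cells and 1 a lower one. The shares of all genes were 3.91% and 3.21%. Set directly against *STING1* KO, the *REST* KO response was higher for 5 and lower for 4 (7.14% and 5.84% of all genes).

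*INSM1* and *INSM2*, zinc finger factors of NE differentiation, were 2 of the 7 whose response was called higher than in REST-intact cells. *INSM2* was at 4.34, 4.46 and 5.17 and then at 4.19, 4.48 and 4.33 in *REST* KO cells, with overlap, and went from 4.24, 3.95 and 3.95 to 0.19, 0.19 and 0.49 in REST-intact cells. *INSM1* was lower in *REST* KO than in REST-intact cells before induction (1.31, 1.18 and 1.82 against 3.30, 3.54 and 3.86) and was at 0.29, 0.67 and 1.48 with doxycycline. *YAP1*, a coactivator that is low in NE SCLC, rose from 2.60, 2.65 and 3.02 to 6.40, 6.75 and 6.75. *SOX1*, a neural progenitor factor, was listed at 0 in libraries 28 to 30 and was at 6.72, 6.51 and 5.87 with doxycycline, against 1.49, 1.42 and 1.85 in REST-intact cells.

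The genes with the largest falls in *REST* KO cells were chosen by size among called genes with groups that did not overlap, and their fold changes are descriptions of that choice. *RP1*, *RBP3*, *IMPG2* and *AIPL1*, known from the retina, had log2 values of 6.81 to 7.68 without doxycycline and of 0.16 to 1.37 with it. Each also fell in REST-intact cells (log2 fold changes -8.22, -5.95, -5.39 and -4.51, against -6.38, -6.62, -6.89 and -6.18). The melanin synthesis enzyme *DCT* went from 10.34, 10.36 and 10.55 to 1.12, 1.69 and 0.95 and the muscle-type acetylcholine receptor subunit *CHRNA1* from 9.67, 9.69 and 9.59 to 1.68, 1.42 and 0.52. *MAB21L1*, *ALDOC*, *ANKRD33* and *PALMD*, named by the same rule, fell by 5.98 to 6.51 on the log2 scale. Of 26 called genes listed at 0 in all 3 libraries with doxycycline, 12 had a mean of at least 2 without it. The 6 highest of them were *CHRND* (8.41, 8.40 and 8.67), *NXNL1* (8.00, 8.02 and 7.63), *LINC01053*, *DNMT3L*, *LMX1A* and *PDE6H*, the last at 3.63, 3.59 and 3.76.

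Genes of MHC class I antigen presentation rose in *REST* KO cells, 14 of 19 tested with none lower by limma (2 at an unadjusted *P* under 0.05 whatever their size, and 1 called lower without library 31), a median of 1.83 against 1.45 in REST-intact cells, where 12 rose and 1 fell. The class I heavy chain gene *HLA-B* was at 0.17, 0.26 and 0.094 without and 8.04, 7.60 and 6.53 with doxycycline, lowest of the induced libraries in library 33. The log2 fold change of 7.21 (SE 0.30, limma adjusted *P* = 1.79e-12) was 2.45 above that of REST-intact cells (SE 0.43, limma adjusted *P* = 0.000593). Reads of *HLA-B*, *HLA-C* (log2 fold change 3.67), *HLA-E* and *HLA-F* can be shared between these similar genes, so the split among them is uncertain. The light chain gene *B2M* rose from 5.04, 5.10 and 4.86 to 9.04, 8.79 and 7.81.

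The immunoproteasome subunit *PSMB9* was listed at 0 in libraries 28 to 30 and reached 7.22, 7.10 and 6.26, and its partner *PSMB8* went from 0, 0.07 and 0.028 to 4.67, 4.43 and 3.87. The peptide transporters *TAP1* and *TAP2* rose by 2.99 and 2.03 on the log2 scale, the peptide-loading protein *TAPBP* by 2.38 and the trimming peptidase *ERAP1* by 1.83. *NLRC5*, the transactivator of class I genes, was listed at 0 and then at 2.18, 2.04 and 1.60, against 0.87, 0.78 and 0.96 in induced REST-intact cells. The response was called higher with *REST* KO for 4 of the 19, *HLA-B*, *PSMB9*, *PSMB10* and *NLRC5*, and lower for none (0 also at an unadjusted *P* under 0.05). The count of 4 was 3 without library 4, 5, 6, 7, 9, 28, 29 or 30. It was 3 with only the groups of the comparison in the model, and 3 of 21 without the filter on low values. It was 5 without library 8 or with a pseudocount of 0.1. Without library 31 or 32, and without libraries 4, 30 and 33 together, the response was called higher for 2 of 17. In *STING1* KO cells 5 of the 19 rose (median 0.57), with *HLA-B* at a log2 fold change of 1.45. Of 8 class II pathway genes tested, *HLA-DPA1*, *HLA-DMA*, *HLA-DMB* and *CTSS* rose and *HLA-DQB1* fell, no response was called different by limma (4 higher at an unadjusted *P* under 0.05, with 2 called higher without library 8 or 33 and 1 without library 4 or 29), and the transactivator *CIITA* was too low to be tested.

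Sensors of nucleic acids were among the genes that went from near 0 to a clear signal, and 9 of 16 tested rose with none lower by limma (1 at an unadjusted *P* under 0.05; median 1.05, against 0.71 with 8 higher and 1 lower in REST-intact cells). *STING1*, listed under its older symbol *TMEM173* (chr5:138855118-138862520 of GRCh37, minus strand) and encoding the adaptor that signals after cytosolic DNA is sensed, was at 0, 0.013 and 0.016 without and 1.93, 2.20 and 1.62 with doxycycline. Its response was 1.90 (SE 0.18, limma adjusted *P* = 7.58e-08), against 1.10 in REST-intact cells, and the difference of 0.80 was under the fold threshold (limma adjusted *P* = 0.0375). *CGAS*, under *MB21D1*, was too low to be tested, with 0.44, 0.65 and 1.22 in libraries 31 to 33. *IFIH1*, the RNA sensor MDA5, was at 1.27, 0 and 0 and then at 8.85, 8.48 and 8.62. *TLR3*, a sensor of double-stranded RNA in endosomes, was listed at 0 and then at 5.35, 5.43 and 4.18. *IRF1* and *IRF2*, interferon regulatory factors, rose by 2.75 and 1.98 on the log2 scale. *IFI16*, a DNA sensor, was at 0, 0.037 and 0.044 without and at 1.40, 0.78 and 1.16 with doxycycline, and was the one gene of this list whose response was called higher than in REST-intact cells. That count was 0 without library 9, without libraries 4, 30 and 33 together or with quantile scaling, and 2 without library 6, 7, 28, 29 or 32. Its log2 fold change was 1.08, and 0.94 without library 31.

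**Figure D4:**
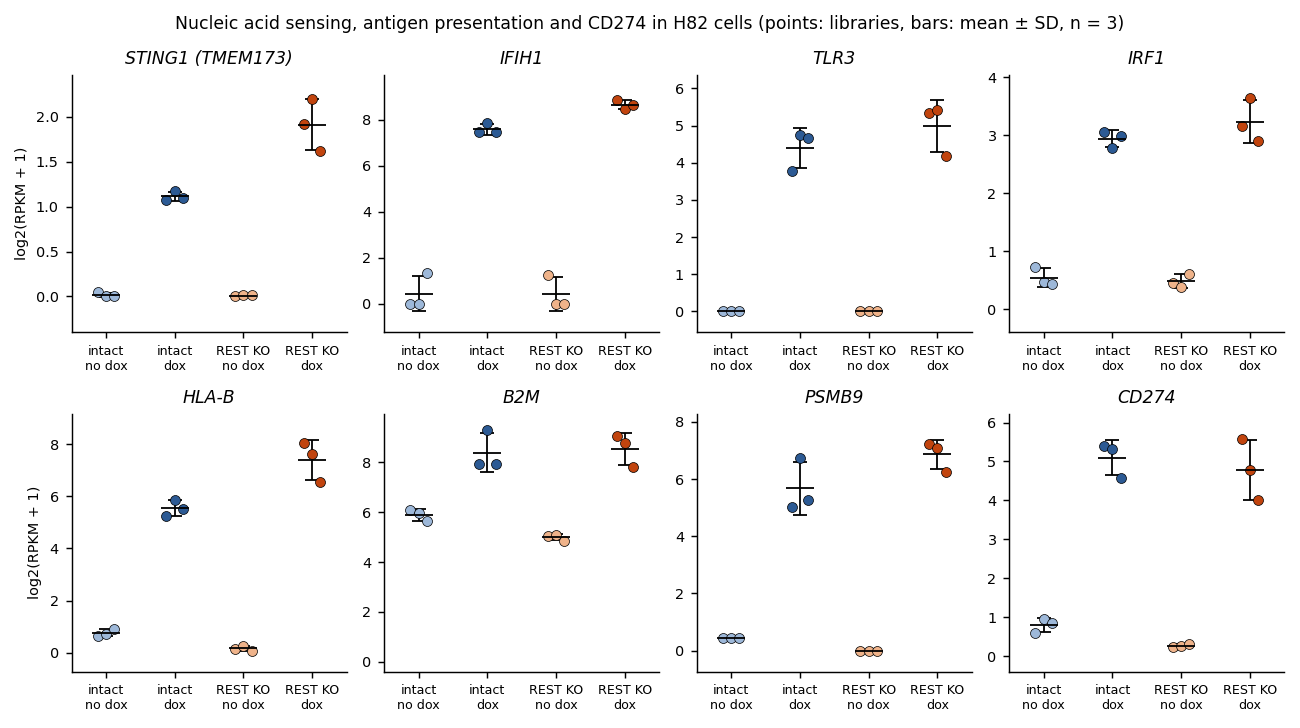
Each panel shows log2(RPKM + 1) of 1 gene by library (points, 3 a group) with the mean and SD (bars) in REST-intact and *REST* KO cells without and with doxycycline. In every panel the induced libraries lie above the uninduced ones, and *HLA-B* and *STING1* are higher in induced *REST* KO than in induced REST-intact libraries.

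Interferon-stimulated genes rose, 25 of 32 tested with none lower in *REST* KO cells by limma (0 also at an unadjusted *P* under 0.05; median 2.33), against 25 and 1 in REST-intact cells (median 2.12) and 19 and 1 in *STING1* KO cells (median 1.42). *ISG15*, a ubiquitin-like modifier, went from 0.99, 1.11 and 0.31 to 5.06, 5.10 and 4.94, the antiviral *OAS3* from 0, 0.048 and 0 to 4.64, 4.92 and 5.02 and the guanylate-binding protein *GBP1* from 0.11, 0.06 and 0.14 to 5.13, 4.73 and 4.51. *IFIT2* and *TRIM22* were listed at 0 in libraries 28 to 30 and were at 3.58, 3.61 and 2.64 and at 4.30, 4.26 and 3.76 in the induced ones. *STAT2* and *IRF9*, which transduce interferon signals, rose by 1.25 and 1.75 on the log2 scale, *IRF9* by less than in REST-intact cells (3.48, limma adjusted *P* of the difference = 0.00469). The response was higher for 6 of the 32, including *LGALS3BP* (8.31 against 5.43), *HERC5* and *OAS3*. Library 33 was the lowest of the 3 induced libraries for *ISG15*, *GBP1* and *IFIT2*.

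Of 19 chemokine and cytokine genes tested, 12 rose and none fell by limma (1 at an unadjusted *P* under 0.05). *CCL2*, which attracts monocytes, rose from 0, 0.085 and 0 to 5.55, 6.47 and 5.37, a smaller response than that of REST-intact cells, which reached 7.35, 8.23 and 7.96 (log2 fold changes 5.77 and 7.69, limma adjusted *P* of the difference = 0.0148). The macrophage growth factor *CSF1* went from 1.86, 1.86 and 2.01 to 7.43, 7.74 and 7.08, *IL32* from 2.88, 2.63 and 3.26 to 7.80, 8.23 and 7.52 and *TGFB2* from 1.26, 1.31 and 1.71 to 8.24, 8.02 and 8.84. *TGFB1* rose in *REST* KO cells and was not called in REST-intact cells (1.11 against -0.85, limma adjusted *P* of the difference = 0.00413), and so did *TNFSF9* (1.73 against 0.12). The T cell chemokines *CXCL9*, *CXCL10* and *CCL5* were close to 0 in these 6 libraries (at most 0.031, 0.11 and 0.034). Among 13 tested ligands of T cells and NK cells, 8 rose and none fell by limma (0 also at an unadjusted *P* under 0.05). The checkpoint ligand *CD274* (PD-L1) went from 0.23, 0.27 and 0.31 to 5.57, 4.77 and 4.02, *PDCD1LG2* (PD-L2) from a listed 0 to 6.11, 5.20 and 2.59 and the adhesion ligand *ICAM1* from 3.66, 3.59 and 3.64 to 6.11, 6.22 and 5.99. *MICB*, a stress ligand for NK cells, was the 1 member with a higher response than in REST-intact cells (4.04 against 1.83, limma adjusted *P* of the difference = 0.000304), and without library 33 there were 2.

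Extracellular matrix genes rose, 31 of 34 tested with none lower by limma (0 also at an unadjusted *P* under 0.05), a median of 4.27 against 2.76 in REST-intact cells, where 31 rose and 1 fell. The response was called higher with *REST* KO for 16 and lower for none (3 at an unadjusted *P* under 0.05, and 1 called without library 8). *COL18A1*, a basement membrane collagen, went from 0.21, 0.50 and 0.11 to 9.72, 10.02 and 7.75 in *REST* KO and from 0.30, 0.56 and 0.81 to 4.20, 3.05 and 4.84 in REST-intact cells. The groups did not overlap in either, and the responses of 8.89 and 3.48 differed by 5.41 (SE 0.67, limma adjusted *P* = 1.75e-05). *COL1A1*, fibrillar collagen, rose from 0.32, 0.36 and 0.23 to 8.82, 8.64 and 8.28. In REST-intact cells it went from 0.34, 3.32 and 3.57 to 7.06, 6.27 and 7.03, with library 4 far below libraries 5 and 6. *COL5A1*, *COL6A1* and *COL4A2* had differences of 4.75, 3.32 and 2.55, and fibronectin (*FN1*) rose from 0.40, 0.54 and 0.58 to 6.09, 6.18 and 4.63. *FBN1*, fibrillin, rose in both (log2 fold changes 4.06 and 4.35).

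Adhesion genes and markers of the epithelial-mesenchymal transition (EMT) rose in 21 of 26 cases and fell in 1, *CLDN3*. The median was 3.52, and 2.71 in REST-intact cells, where 22 rose and 1 fell. The response was called higher with *REST* KO for 5 and lower for 3, beside 7.46% and 5.46% of all genes. At an unadjusted *P* under 0.05 in limma, 8 were higher and 8 lower, and the median difference was 0.022. With doxycycline the summed RPKM of the list was 4622 to 6326 in *REST* KO and 9695 to 11700 in REST-intact libraries. Vimentin (*VIM*) rose from 4.43, 4.37 and 5.02 to 7.26, 6.95 and 6.40, *CD44*, a hyaluronan receptor, from 0.66, 0.67 and 1.37 to 5.77, 5.48 and 5.19, and *CDH11*, a mesenchymal cadherin, by 5.16 on the log2 scale. Smooth muscle actin (*ACTA2*) was listed at 0 in libraries 28 to 30 and was at 10.08, 10.12 and 10.15 with doxycycline. The contractile protein genes *TAGLN* and *TPM2* rose by less than in REST-intact cells (5.86 against 8.25, and 1.04 against 2.50). Of 13 EMT transcription factors, 4 could be tested. *SNAI2* went from 0, 0 and 0.037 to 7.87, 7.93 and 7.95 and *ZEB2* from 1.87, 1.93 and 2.15 to 5.02, 5.06 and 6.28, both with a higher response than in REST-intact cells. *SNAI1* fell from 7.70, 7.63 and 7.54 to 4.11, 3.53 and 4.54 and *ZEB1* by 1.85 on the log2 scale, while *TWIST1* was too low to be tested (0.27, 0.27 and 0.39 with doxycycline).

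Cell-matrix receptors and laminins rose in 14 of 20 cases and fell in 3, or in 1 without library 33 (median 2.05). *ITGA1* and *ITGA5*, collagen and fibronectin receptor chains, rose by 6.87 and 5.44 on the log2 scale, *ITGAV* by less than in REST-intact cells (2.16 against 4.38), and *ITGA6*, a laminin receptor chain, fell further than there (-2.72 against -1.17). Among 21 YAP and TAZ pathway genes, 16 rose and none fell by limma (0 also at an unadjusted *P* under 0.05; median 2.49, and 2.43 in REST-intact cells). The matricellular genes *CTGF* and *CYR61*, classical YAP targets, went from 0.031, 0 and 0 to 9.19, 9.33 and 9.53 and from 0.15, 0.31 and 0.56 to 8.39, 8.41 and 8.66. *ANKRD1* rose by 4.50 and *AMOTL2* by 4.24 on the log2 scale. The response was called higher for 2 of the 21 (7.46% of all genes were), *CTGF* (difference 1.21, limma adjusted *P* = 0.0479) and *FJX1* (2.02). This count was 5 without library 4, and 1 without library 5, 8, 28, 29 or 30.

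Of 20 receptor tyrosine kinase genes tested, 6 rose and 4 fell. *PDGFRB*, the receptor of pericytes and fibroblasts, went from 1.28, 1.34 and 1.28 to 7.35, 7.62 and 6.56, and *DDR2*, a collagen receptor, from 5.54, 5.49 and 5.69 to 10.67, 10.67 and 8.61. The VEGF receptors differed from each other. *FLT1* was listed at 0 in libraries 28 to 30 and reached 3.94, 3.97 and 4.52, against 0.82, 0.83 and 0.82 in REST-intact cells, whereas *KDR* reached 1.03, 0.50 and 0.75 against 4.45, 4.38 and 4.97. *EPHB2* rose in *REST* KO and fell in REST-intact cells (2.16 and -1.16, limma adjusted *P* of the difference = 0.000294).

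*MYC* fell from 9.75, 9.71 and 9.61 to 8.38, 7.66 and 8.43, by less than in REST-intact cells (-1.54 against -2.65, limma adjusted *P* of the difference = 0.0202), and *MYCL* fell by 1.77 on the log2 scale. Proliferation genes were lower, 13 of 29 called with 2 higher (median -0.93) against 18 lower in REST-intact cells (median -1.22), and no response was called different by limma (1 higher and 0 lower at an unadjusted *P* under 0.05). Without library 31, 7 were called lower, and 1 was called higher without library 32 or 33. The mitotic kinase *PLK1* was at 7.43, 7.37 and 7.12 without and 4.67, 4.96 and 6.47 with doxycycline, and *CCNA2*, cyclin A2, at 6.13, 6.17 and 5.68 and then at 3.92, 4.15 and 5.61. In both, library 33 lay between libraries 31 and 32 and the uninduced group, and the call of *CCNA2* (log2 fold change -1.43) was lost without library 31 (-1.11). *MKI67* was not called (log2 fold change -1.33, limma adjusted *P* = 0.0595), but was without library 33 (-1.83). The CDK inhibitor *CDKN1A* (p21) rose from 0, 0.014 and 0.048 to 4.70, 4.80 and 5.84, by more than in REST-intact cells (difference 1.74, limma adjusted *P* = 0.00408), and *CDK6* rose by 1.52 on the log2 scale.

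Cell death genes rose in 12 of 24 cases and fell in 1 (median 0.97, and 0.95 in REST-intact cells). The survival gene *BCL2* went from 0.34, 0.31 and 0.25 to 4.24, 4.25 and 3.80, and its relative *BCL2L1* fell by 1.29 on the log2 scale. The caspase gene *CASP8*, the death receptor *FAS* and the necroptosis effector *MLKL* rose, *CASP8* with 0.99 and no call without library 31 (1.20 with it) and *MLKL* with no call in REST-intact cells (1.53 against -0.53, limma adjusted *P* of the difference = 0.00345). *BCL2L11* (BIM) behaved in the same way (1.45 against 0.044), while *PMAIP1* (NOXA) and *TNFRSF10B* (a TRAIL receptor) had lower responses than in REST-intact cells (differences -1.47 and -1.17).

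**Figure D5:**
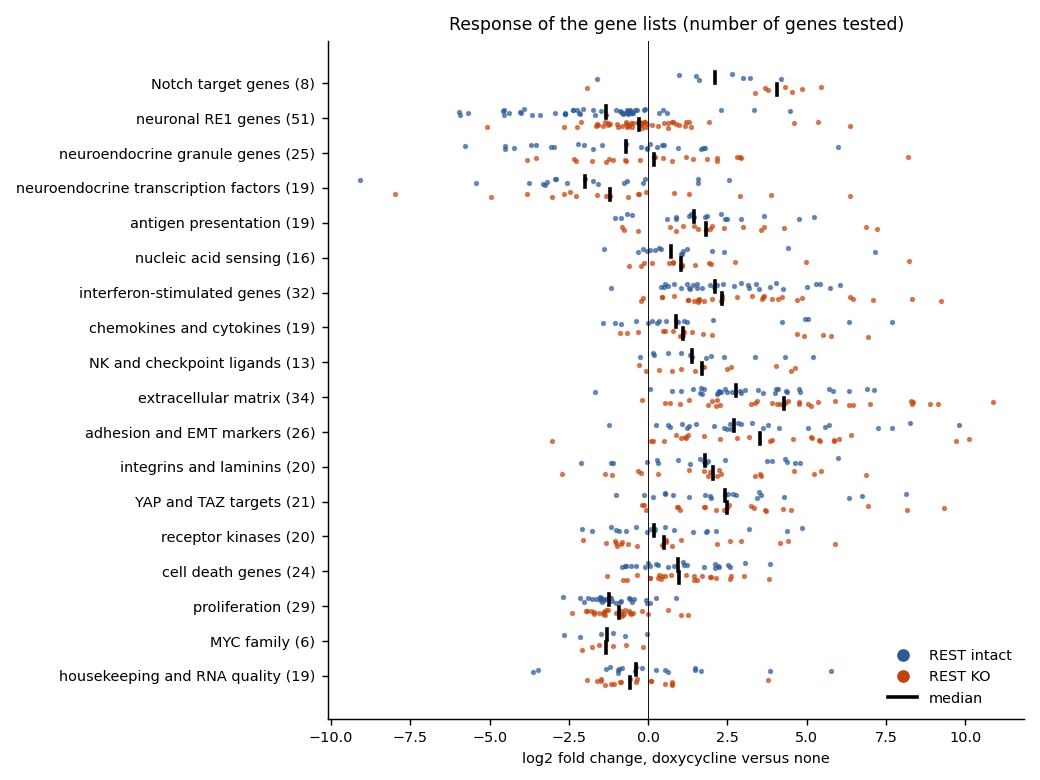
Each row is 1 gene list with the number of its genes tested; points are log2 fold changes with doxycycline of its genes in REST-intact (blue) and *REST* KO cells (orange), and bars are medians. The medians of Notch targets (4.05 against 2.11) and extracellular matrix (4.27 against 2.76) are higher in *REST* KO cells, that of neuronal RE1 genes is near 0 (-0.30 against -1.33), and those of proliferation are below 0 in both (-0.93 and -1.22).

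Markers of other cells and of RNA handling were checked alongside these lists. Of 16 blood and endothelial markers, 13 were in the table and 3 could be tested. The defining markers *PTPRC*, *CD3D*, *CD163* and *CDH5* were at 0 in libraries 28 to 30 and at most 0.028 in libraries 31 to 33, while *CD14* rose (0.52, 0 and 0.30, then 1.88, 2.23 and 1.77), as did the angiopoietin receptor *TEK* (0, 0.045 and 0, then 4.78, 5.01 and 5.08), and *HBA1*, which shares sequence with a near-identical copy, fell. The summed RPKM of this list was 16.26 to 27.68 without and 40.35 to 43.91 with doxycycline. Of 19 housekeeping, stress and immediate-early genes, *EGR1* was called higher (5.37, 5.69 and 5.99 with doxycycline, overlapping library 30, and not called without library 28 or 29, while 2 genes were called higher without library 30) and 6 fell, among them *GAPDH* (12.22, 12.24 and 13.05, then 11.08, 11.15 and 10.83) and the ribosomal protein gene *RPLP0* (log2 fold change -1.49), and their summed RPKM was 25340 to 30020 without and 18430 to 20400 with doxycycline. What part such shifts have in the results above was not tested.

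The largest rises of *REST* KO cells, named by size among called genes with separate groups, began with the imprinted noncoding RNA gene *H19* (0.28, 0.82 and 0.54, then 14.43, 14.90 and 13.45). It also rose in REST-intact cells, to 11.70, 10.24 and 12.36. The leukocyte receptor gene *CD300A* went from 1.77, 1.06 and 0 to 11.77, 11.94 and 10.43, the T-box factor *TBX2* from 0, 0.62 and 0.57 to 10.78, 11.08 and 10.19 and *DAAM2*, of Wnt signaling, from 1.56, 1.32 and 0.92 to 11.38, 11.34 and 10.08. *NID1*, nidogen of basement membranes, the interferon-induced *IFITM2*, whose reads can be shared with *IFITM1* and *IFITM3*, *COL8A1* and *THBS1* rose by 8.37 to 9.30 on the log2 scale, beside *CTGF*, *COL18A1* and *JAG1* given above. Of the genes that rose, 342 were listed at 0 in all 3 uninduced libraries, and 208 of these had separate groups and a mean of at least 2 with doxycycline. The 6 highest were *OR51E1* (11.41, 11.83 and 11.28), *COL3A1* (10.61, 10.86 and 11.14), *PLA2G2A* (11.02, 11.20 and 9.66), *ACTA2*, *AXL* (10.05, 10.10 and 9.01) and *KRT17* (9.65, 9.50 and 8.45).

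Of 33 genes that rose with *REST* KO and fell in REST-intact cells and 20 that did the reverse, 6 are described, those in which the smaller of the responses was largest. *ADAMTS2*, a procollagen peptidase, rose from 0, 0 and 0.77 to 5.27, 5.61 and 4.65 in *REST* KO cells and fell from 3.45, 5.27 and 5.91 to 1.45, 2.47 and 2.09 in REST-intact cells. *NCAN*, a neural proteoglycan, rose to 7.00, 7.23 and 6.85 from 4.61, 4.65 and 4.19 and fell to 2.78, 3.20 and 3.35 from 5.62, 6.36 and 6.65. *SEZ6L*, a neuronal membrane protein, rose from 3.08, 3.24 and 3.07 to 5.40, 5.66 and 4.86 and fell from 2.59, 3.15 and 3.58 to 1.13, 0.96 and 1.18. In the other direction, *ENPP2*, the lysophospholipase D autotaxin, fell from 5.64, 5.74 and 6.27 to 2.78, 2.70 and 2.03 in *REST* KO cells and rose from 4.05, 6.75 and 6.59 to 7.70, 8.37 and 8.25 in REST-intact cells. *PGM5* fell from 3.25, 3.23 and 3.63 to 1.10, 1.03 and 1.53 in *REST* KO cells and rose to 5.15, 4.84 and 4.63 in REST-intact cells. *VEGFC*, a lymphatic growth factor, fell from 5.40, 5.54 and 5.26 to 2.78, 3.60 and 3.63 and rose to 5.96, 4.84 and 5.22. The choice was limited to genes whose uninduced and induced libraries did not overlap, in *REST* KO and in REST-intact cells, with no group listed at 0. Of the 53 genes, 46 met these conditions, so the lack of overlap is no result of its own.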

How the data were processed

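Bulk RNA-Seq was analysed for 21 H82 libraries, 7 groups of 3, out of 69 in the series. According to the study's methods, the authors made stranded polyA libraries, sequenced paired reads, trimmed them with Cutadapt, used STAR for alignment to hg19 and RSEM for gene estimates, and scaled the estimates by the TMM method of edgeR before conversion to RPKM; versions are not given in the sources used here. The deposited values are log2(RPKM + 1), and no raw counts were used here. A value of 0 can be a failed estimate as well as an absent RNA, so no fold is given against a group at 0 in all 3 libraries. The study's own tests used limma-voom, whereas here limma 3.58.1 (R 4.3.3) was fitted with a variance trend on the deposited log2 values, because voom needs counts.

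Groups were taken from the labels. Of 20516 genes, 13903 were tested, those that reached 1 on the log2 scale in 3 or more of the 21 libraries, in 1 model of 7 group means with moderated variances, and *P* values were adjusted over all tested genes by the Benjamini-Hochberg method. Genes were called where the adjusted *P* was under 0.05 and the log2 fold change was 1 or more in either direction. The contrasts were induced minus uninduced *REST* KO cells, the same in REST-intact cells, and the difference of both. *STING1* KO cells and the uninduced groups were compared in the same model. Depth as a count is not known; relative depth was taken from the steps of low values. No libraries held identical values. The fit was tested on simulated data.

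Named genes were *NOTCH1* and *REST*, list members ordered by role, up to 12 called genes per direction by size of the fold change among those with groups that did not overlap and a mean log2 of at least 2 in the higher group, with up to 6 per direction listed at 0 in the lower group given by level, up to 6 per direction for the difference, and up to 6 called in opposite directions. *FOS* and a marker of another SCLC type were named as checks. Some genes this rule takes are not reported here. The gene lists and members were chosen with earlier results of these data known, so they are no independent evidence. Alternatives were the filter, the pseudocount, quantile or median scaling, the variance trend, the groups in the model and the libraries included. Gene positions are those of the GENCODE annotation mapped to GRCh37, which shares its coordinates with hg19. Promoter sequences are from RefSeq on GRCh38.p14 and were searched with Python 3.11.15, pandas 2.3.3 and numpy 2.4.6. Figures were drawn with matplotlib 3.10.9.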

Additional observations from a re-analysis of the deposited data

Results flagged for a closer look

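The doxycycline response of *REST* KO cells differed from that of REST-intact cells by the interaction test of limma for 1037 genes that were higher and 759 that were lower with *REST* KO. The largest differences among called genes with a mean log2 of at least 2 are given here. *ADAMTS2* had a difference of 7.79 (4.92 in *REST* KO against -2.87 in REST-intact cells, limma adjusted *P* = 5.56e-07). *PNPLA5*, a lipase family member, had 5.94 (4.48 against -1.46), *XKR7* 5.79 (1.87 against -3.93) and *NCAN* 5.64 (2.54 against -3.10). *HCN2*, a pacemaker channel, had 5.58 and was at 4.88, 5.10 and 5.56 in induced *REST* KO and at 0, 0.59 and 0.88 in induced REST-intact libraries. *H19* had 5.54, with rises in both.

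On the lower side, *ENPP2* had a difference of -5.69 (-3.38 against 2.31), *WIPF3*, an actin regulator, -5.36 (-1.72 against 3.63) and *MFAP4*, a matrix protein, -5.25 (-3.97 against 1.28). The ephrin receptor *EPHA3* had -5.23, although its log2 fold change in *REST* KO cells did not pass the test (-1.59, limma adjusted *P* = 0.0582). That fold change was called with only the groups of the comparison in the model (limma adjusted *P* = 0.0121). It was also called with median-centred libraries (-1.66, limma adjusted *P* = 0.0441). *PGM5* had -5.20 and *MAB21L1* -4.88, the latter with 1.64, 1.07 and 1.79 in induced *REST* KO libraries and 7.77, 8.32 and 7.72 in induced REST-intact libraries. Among genes called in opposite directions, *VEGFC* had -4.35 and *SEZ6L* 4.19. Induced *NOTCH1* RNA differed between the 2 responses as well (difference 4.53), and its part in these differences was not tested.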

How the results depend on the processing

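No paired analysis was possible because the uninduced and induced groups share no library number. Under every alternative the number of genes called stayed within 1.5 times that reported, for induced *REST* KO cells at 3925 to 4120 when 1 library was left out and 4034 to 5056 otherwise (4157 reported), for the difference of the responses at 1482 to 1884 and 1460 to 1946 (1796 reported), and for REST-intact cells at 3598 to 4223 and 3590 to 4810 (3770 reported). The lowest difference count, 1460, came without libraries 4, 30 and 33 together, an alternative chosen after the data had been seen. Quantile scaling moved the median of all genes in *REST* KO cells from -0.0091 to -0.136 on the log2 scale, so its smaller changes are relative to that shift, and calls of *CASP8*, *HLA-DMB*, *IFI16*, *STMN2* and *TPM2* were lost under it. *REST* itself was 0.84 without library 33 and 0.88 without libraries 4, 30 and 33, under the fold threshold.

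Sign changes were found for 4 genes that were not called in *REST* KO cells. With 1 library left out, *FOS* was -0.34 to 2.82 (the highest without library 30), *SCN2A* -0.18 to 0.15 and *TNFRSF10B* -0.017 to 0.11. Without libraries 4, 30 and 33 together, *SCN2A* was 0.0080, *TNFRSF10B* -0.098 and *NOTCH2* -0.12, and *TNFRSF10B* was -0.0094 with median-centred libraries. Medians of the 26 gene lists shifted by at most 0.411 when 1 library was left out. With quantile scaling they shifted by at most 0.448, beyond the SD between the induced libraries in 13 lists and with a change of sign in 2. Without the filter on low values the shift was beyond that SD in 17 lists and reached 2.72, for Notch receptors (6.11 to 3.38), and the median of NE transcription factors changed sign (-1.20 to 0.036), with 33 genes in place of 19. With a pseudocount of 0.1, which stretches changes of low genes, it was beyond that SD in 18 lists and reached 2.77, again for Notch receptors. Without raw counts no counting error can be given for low values, and with 3 libraries a group a difference that missed the threshold is not shown to be absent.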
